A study of Mus musculus with 8 samples.

Results

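The claudin family was followed in bulk RNA sequencing of mouse small intestine through 9 genes, Cldn1, Cldn2, Cldn3, Cldn4, Cldn7, Cldn8, Cldn12, Cldn15 and Cldn23, chosen by gene name out of 55421 genes in the deposited count table. The table holds 34 genes named Cldn and a number, and the other 25 are described further on. Hypoxia+Nitrate consists of 4 samples of wild-type (WT) mice kept at 7% oxygen for 7 days and given 4 mM nitrate, and the Hypoxia group of 4 samples of WT mice kept at the same oxygen for the same time without nitrate. Both groups were therefore hypoxic, and no sample in normal air was analysed here. Strain, sex and age are not given in the labels, nor is the segment of the small intestine, and no label states whether the samples of a group come from different animals, so the tests rest on sample-to-sample spread that may be technical.

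Claudins are membrane proteins with 4 transmembrane segments that form the strands of tight junctions, the belt that closes the space between neighbouring epithelial cells. Their extracellular loops decide what passes that space. Some claudins form channels for small ions or water, others close the space, and several act differently from tissue to tissue. In the intestine the channel formers Cldn2 and Cldn15 let sodium return to the lumen, where sodium-coupled uptake of glucose and amino acids needs it. On this general knowledge Cldn2 and Cldn15 are treated below as pore-forming and Cldn1, Cldn3, Cldn4 and Cldn8 as sealing, while Cldn7, Cldn12 and Cldn23 are placed in neither class.

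The libraries of the groups differed in depth and in background, which touches every value below. Total counts ran from 8662279 to 63943036 in Hypoxia+Nitrate and from 5345377 to 21835865 in Hypoxia. Odorant, vomeronasal and trace-amine receptor genes, taken as silent in gut tissue, served as a measure of background. Multiplied by the exonic length of all nuclear protein-coding genes, their counts per kb amounted to 12.1% ± 10.8 of the counts of those genes in Hypoxia+Nitrate and 50.9% ± 10.5 in Hypoxia (SD, n = 4 each; p = 0.0286 in a 2-sided exact permutation test, which can give no smaller value with these group sizes). RNA of epithelium was present in Hypoxia+Nitrate, where the summed counts of 11 epithelial markers (Epcam, Cdh1, Vil1, keratins and others) were 44.2 to 2300 times their expected background. In Hypoxia 1 to 4 they were 4.21, 16.7, 2.17 and 2.43 times. Over the Hypoxia libraries the stomach markers as a whole reached 1.70 times and the squamous markers 1.42 times. The highest single genes of these lists were Atp4a at 2.10 and Krt14 at 1.97 times. Whether Hypoxia 3 and 4 held epithelial RNA above background is therefore unclear. CPM are counts relative to the library's total multiplied by its TMM factor from edgeR, except where nuclear protein-coding genes alone are named. There the counts are relative to the total of those genes, without that factor. The factors ran from 0.220 in Hypoxia+Nitrate 1 to 3.69 in Hypoxia 3, so CPM can rank libraries differently from counts over the library's total alone. Over nuclear protein-coding genes alone, these epithelial markers held 16047, 2948, 2422 and 17695 CPM in Hypoxia+Nitrate 1 to 4. In Hypoxia 1 to 4 they held 752, 1830, 332 and 319 CPM. A protocol label speaks of islets at the RNA step, and the summed level of 7 markers of exocrine pancreas was 6.82 to 12.1 CPM in Hypoxia+Nitrate and 13.5 to 16.7 CPM in Hypoxia. In Hypoxia the counts of these pancreas markers were 1.09 times their expected background, so as a whole they were not detectable above background there. In bulk tissue fewer epithelial cells and less RNA per cell cannot be told apart. The part of the background share in the epithelial marker levels was not tested.

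Of the 9 claudins, 4 were higher in Hypoxia+Nitrate (Cldn3, Cldn4, Cldn7 and Cldn15), 1 was called lower at background levels in both groups (Cldn8) and 4 did not pass (Cldn1, Cldn2, Cldn12 and Cldn23), by edgeR's quasi-likelihood test with Benjamini-Hochberg adjustment over all 35431 genes tested. Over all genes 11.7% were called higher and 12.7% lower. Of all calls 48.1% were upward under TMM scaling, 35.0% under RLE, 34.4% under upper-quartile scaling and 13.5% when only library size was used, and the median of all genes lay at -0.58, -0.87, -0.94 and -1.07 on the log2 scale. Relative to that median Cldn7 was higher by 5.53, 5.64, 5.46 and 4.46 and Cldn15 by 3.80, 3.89, 3.71 and 2.47 in the same order. All 9 claudins passed the filter on low counts, Cldn8 through its Hypoxia counts alone. The median log2 fold change was 0.76 over the 9 claudins and -0.58 over all genes tested. In CPM scaled by edgeR's TMM factors, the groups did not overlap for Cldn3 and Cldn7 (higher) or for Cldn1 and Cldn8 (lower); over all genes this held for 12.0% upward and 28.8% downward.

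**Figure D1:**
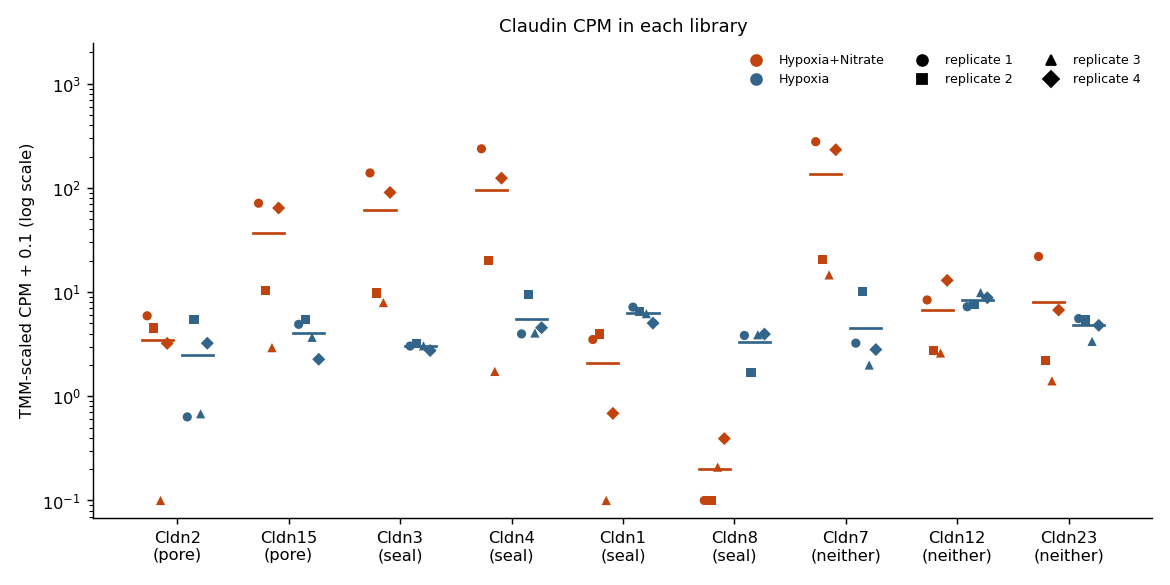
Values of the 9 claudins in each library, as TMM-scaled CPM plus 0.1 on a log axis; symbols are single libraries, horizontal bars are group means (n = 4), and the class of each gene is given below its name. Hypoxia+Nitrate 1 and 4 hold the highest values of Cldn3, Cldn4, Cldn7 and Cldn15, and the Hypoxia libraries of Cldn3 lie close together, between 2.65 and 3.13 CPM.

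Among the pore-forming claudins Cldn15 rose and Cldn2 did not pass. Cldn15 (ENSMUSG00000001739, chromosome 5, 136966616 to 136975858, plus strand, GRCm38), which forms a sodium-selective channel in villus and crypt cells, had 1003, 181, 52 and 1314 counts in Hypoxia+Nitrate 1 to 4, against 72, 74, 68 and 36 in Hypoxia 1 to 4. In CPM that was 71.3, 10.3, 2.83 and 64.1 in Hypoxia+Nitrate, against 4.81, 5.38, 3.58 and 2.17 in Hypoxia. Hypoxia+Nitrate 1, 2 and 4 lay above every Hypoxia library, and Hypoxia+Nitrate 3 lay within the Hypoxia range. Cldn15 rose 9.31-fold, a log2 fold change of 3.22 (SE 0.88, edgeR adjusted p = 0.0251). Without any 1 of the Hypoxia libraries the adjusted p of Cldn15 was 0.0571 to 0.0804, and without Hypoxia+Nitrate 1 it was 0.0508. In limma-voom Cldn15 did not pass (log2 fold change 2.36, adjusted p = 0.0947). Without both Hypoxia+Nitrate 1 and 4 the log2 fold change of Cldn15 was 0.77 (edgeR adjusted p = 0.339).

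Cldn2 (ENSMUSG00000047230, chromosome X, 139800828 to 139811386, plus strand), a cation and water channel best known from crypts, had 82, 78, 0 and 64 counts in Hypoxia+Nitrate 1 to 4, against 8, 74, 11 and 52 in Hypoxia 1 to 4. Its CPM values were 5.83, 4.44, 0 and 3.12 in Hypoxia+Nitrate and 0.534, 5.38, 0.580 and 3.13 in Hypoxia, so the groups overlapped, with low and high libraries in each. The log2 fold change of Cldn2 was 0.47 (SE 1.22, edgeR adjusted p = 0.783). With library size as the only scaling the log2 fold change of Cldn2 was -0.26, so its sign depended on the scaling. Of the 8 crypt and stem cell markers, edgeR called 0, with 2 higher at an unadjusted p under 0.05, and DESeq2 called 1 and limma-voom 0 (median log2 fold change 0.48). Of 10 enterocyte markers 10 rose (median 5.70). Over all genes edgeR called 11.7% higher and 12.7% lower, so 0 calls among 8 crypt and stem cell markers lie near these shares. In Hypoxia the counts of crypt and stem cell markers were 1.48 times background, and those of enterocyte markers 5.83 times.

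The promoters of both pore-forming genes are shown because Cldn15 passed the test and Cldn2 did not. They are the 250 bases before the RefSeq transcription start (GRCm38.p6), 5′ to 3′ on the gene's strand, at chr5:136967619-136967868, plus strand, for Cldn15 and chrX:139800558-139800807, plus strand, for Cldn2. RefSeq held such an entry for 7 of the 9 claudins, not for Cldn8 and Cldn23. Capitals mark matches, on either strand, to 5 motifs. Searched were the core promoter box TATAAA, the box GGGCGG bound by Sp1, and the motif TTTATG, known as a site of the intestinal factor CDX2. Also searched were ACGTG, the core of sites for hypoxia-inducible factors, and the E-box CAGGTG, bound by Snail proteins.
Cldn15: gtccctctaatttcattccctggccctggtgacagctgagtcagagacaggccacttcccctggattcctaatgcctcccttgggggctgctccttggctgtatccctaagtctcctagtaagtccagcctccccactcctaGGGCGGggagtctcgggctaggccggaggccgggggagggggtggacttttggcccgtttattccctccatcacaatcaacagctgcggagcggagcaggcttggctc
Cldn2: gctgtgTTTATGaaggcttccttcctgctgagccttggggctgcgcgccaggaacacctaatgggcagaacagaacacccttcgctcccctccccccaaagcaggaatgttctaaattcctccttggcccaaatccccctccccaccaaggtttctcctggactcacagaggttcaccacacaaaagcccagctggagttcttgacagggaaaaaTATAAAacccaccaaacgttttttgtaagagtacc
Cldn15 had the Sp1 box and none of the other motifs, while Cldn2 had the core promoter box and the CDX2 motif. Of all 32851 RefSeq promoter windows of this length, 12.4% held the core promoter box, 32.7% the Sp1 box, 10.8% the CDX2 motif, 16.6% the hypoxia-inducible factor core and 17.2% the E-box. No 2 marked matches overlap, and a match describes the letters only.

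Of the 4 sealing claudins Cldn3 and Cldn4 rose, Cldn1 did not pass, and Cldn8, called lower, was not above background in either group. Cldn3 (ENSMUSG00000070473, chromosome 5, 134986214 to 134987472, plus strand), a sealing claudin found along the whole intestine, had 1961, 171, 144 and 1855 counts in Hypoxia+Nitrate 1 to 4, against 44, 43, 56 and 44 in Hypoxia 1 to 4. In CPM Cldn3 held 139, 9.72, 7.84 and 90.5 in Hypoxia+Nitrate, against 2.94, 3.13, 2.95 and 2.65 in Hypoxia. Every Hypoxia+Nitrate library lay above every Hypoxia library. Cldn3 rose 21.2-fold, by 4.40 on the log2 scale (SE 0.92, edgeR adjusted p = 0.0100), and the adjusted p was 0.0510 without Hypoxia 1. Cldn3 was also called without both Hypoxia+Nitrate 1 and 4, with a smaller log2 fold change of 1.67 (SE 0.38, edgeR adjusted p = 0.0183). Of its 1259 exonic bases 1219 are free of other genes, and the remainder overlaps Wbscr25.

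Cldn4 (ENSMUSG00000047501, chromosome 5, 134945119 to 134946934, minus strand), which lies close to Cldn3 and is known from villus tips and the epithelium over lymphoid follicles, had 3345, 354, 30 and 2545 counts in Hypoxia+Nitrate 1 to 4, against 58, 130, 75 and 74 in Hypoxia 1 to 4. The CPM of Cldn4 was 238, 20.1, 1.63 and 124 in Hypoxia+Nitrate, against 3.87, 9.46, 3.95 and 4.46 in Hypoxia. Hypoxia+Nitrate 3 held the lowest value of all 8 libraries, below every Hypoxia library, while the other Hypoxia+Nitrate libraries were above them all. Cldn4 rose 17.6-fold (log2 fold change 4.14, SE 1.16, edgeR adjusted p = 0.0269). This p was 0.0542 to 0.0937 without any 1 of the Hypoxia libraries and 0.0554 without Hypoxia+Nitrate 1, and limma-voom did not call Cldn4 (2.66, adjusted p = 0.141). Without both Hypoxia+Nitrate 1 and 4 its log2 fold change was 1.03 (edgeR adjusted p = 0.338). Of 6 markers of follicle-associated epithelium and M cells edgeR called 0, with 0 at an unadjusted p under 0.05, while DESeq2 called 0 and limma-voom 2 lower (summed level 31.0 to 80.6 CPM in Hypoxia+Nitrate and 50.7 to 55.5 CPM in Hypoxia). Over all genes edgeR called 11.7% higher and 12.7% lower, so 0 calls among 6 markers lie near these shares.

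The promoter windows of these neighbouring genes, at chr5:134985964-134986213, plus strand, for Cldn3 and chr5:134946935-134947184, minus strand, for Cldn4, are given with the same motifs in capitals, as those of the sealing claudins called higher.
Cldn3: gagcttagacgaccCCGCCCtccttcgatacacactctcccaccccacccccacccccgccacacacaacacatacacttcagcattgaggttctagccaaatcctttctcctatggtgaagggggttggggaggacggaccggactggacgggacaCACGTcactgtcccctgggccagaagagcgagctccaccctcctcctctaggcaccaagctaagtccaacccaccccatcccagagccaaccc
Cldn4: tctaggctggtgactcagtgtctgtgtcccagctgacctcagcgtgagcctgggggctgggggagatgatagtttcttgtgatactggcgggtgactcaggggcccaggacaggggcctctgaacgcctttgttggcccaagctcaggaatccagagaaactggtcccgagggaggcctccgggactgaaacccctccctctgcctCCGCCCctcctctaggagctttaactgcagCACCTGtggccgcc
Both held the Sp1 box, Cldn3 also the hypoxia-inducible factor core and Cldn4 also the E-box.

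Cldn8 (ENSMUSG00000050520, chromosome 16, 88560828 to 88563183, minus strand), a sealing claudin of the distal gut and the kidney, had 0, 0, 2 and 6 counts in Hypoxia+Nitrate 1 to 4, against 56, 22, 72 and 64 in Hypoxia 1 to 4. In CPM this was 0, 0, 0.109 and 0.293 in Hypoxia+Nitrate, against 3.74, 1.60, 3.79 and 3.85 in Hypoxia, without overlap. In Hypoxia the Cldn8 counts came to 1.34 times the background expected from the receptor genes over its length, between 0.779 and 1.59 times by library. Per kb they exceeded 40.5% to 80.0% of the 1468 receptor genes. Expression of Cldn8 was therefore not detectable above background in Hypoxia, nor in Hypoxia+Nitrate, where counts were 0.106 times the expected background. The fitted log2 fold change of -4.86 (SE 1.20, edgeR adjusted p = 0.0171) is thus a comparison of counts near or below background and no measure of Cldn8 expression. Cldn8 was not called without Hypoxia 1, Hypoxia 3 or Hypoxia 4 (edgeR adjusted p = 0.0635, 0.0546 and 0.0587).

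Cldn1 (ENSMUSG00000022512, chromosome 16, 26356642 to 26371841, minus strand), the sealing claudin best known from skin, had 48, 68, 0 and 12 counts in Hypoxia+Nitrate 1 to 4, against 106, 89, 116 and 82 in Hypoxia 1 to 4. The CPM of Cldn1 was 3.41, 3.87, 0 and 0.585 in Hypoxia+Nitrate, against 7.08, 6.47, 6.11 and 4.94 in Hypoxia, again without overlap and lower in Hypoxia+Nitrate. The log2 fold change of Cldn1, -1.65 (SE 1.04, edgeR adjusted p = 0.245), did not pass. Its counts were 0.822 times the expected background in Hypoxia+Nitrate and 1.20 times in Hypoxia, so Cldn1 too was not detectable above background in either group as a whole, although Hypoxia+Nitrate 1 reached 3.35 times. In limma-voom Cldn1 was called lower (log2 fold change -3.17, adjusted p = 0.0478).

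Cldn7 (ENSMUSG00000018569, chromosome 11, 69964779 to 69967885, plus strand), which sits along the lateral membrane, binds EpCAM and is needed for intact intestinal epithelium in mice, had the largest rise of the 9. It had 3914, 359, 267 and 4772 counts in Hypoxia+Nitrate 1 to 4, against 47, 137, 36 and 45 in Hypoxia 1 to 4. Its CPM values were 278, 20.4, 14.5 and 233 in Hypoxia+Nitrate, against 3.14, 9.97, 1.90 and 2.71 in Hypoxia. Every Hypoxia+Nitrate library was above every Hypoxia library, although Hypoxia 2 stood above the other Hypoxia libraries. Cldn7 rose 30.8-fold (log2 fold change 4.95, SE 1.10, edgeR adjusted p = 0.0119), with an adjusted p of 0.0571 without Hypoxia 1. Cldn7 was called without both Hypoxia+Nitrate 1 and 4 (log2 fold change 2.04, edgeR adjusted p = 0.0406). It was also the only claudin of the 9 called when library size was the only scaling (log2 fold change 3.39, edgeR adjusted p = 0.0395). Scaled to CPM over nuclear protein-coding genes alone, the groups of Cldn7 overlapped, with 48.2 in Hypoxia+Nitrate 3 and 48.6 in Hypoxia 2. Its RefSeq start nearest the annotated gene start, at chr11:69964529-69964778, plus strand, had none of the 5 motifs, and the window of its other RefSeq start, at chr11:69965171-69965420, plus strand, held 1 Sp1 box and 2 E-boxes.

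Cldn12 and Cldn23 did not pass. Cldn12 (ENSMUSG00000046798, chromosome 5, 5489537 to 5514958, minus strand), linked to paracellular calcium transport, had 117, 47, 46 and 264 counts in Hypoxia+Nitrate 1 to 4, against 107, 103, 186 and 145 in Hypoxia 1 to 4. The log2 fold change of Cldn12 was -0.33 (SE 0.57, edgeR adjusted p = 0.672). In CPM Hypoxia+Nitrate 1 and 4 (8.31 and 12.9) were within and above the Hypoxia range of 7.14 to 9.80, and Hypoxia+Nitrate 2 and 3 (2.67 and 2.50) were below it. Scaled to CPM over nuclear protein-coding genes alone, Cldn12 held 12.3, 9.39, 8.31 and 16.6 in Hypoxia+Nitrate, against 41.0, 36.5, 53.3 and 43.3 in Hypoxia, lower without overlap. How many of all genes do so in this scaling was not counted, and 28.8% did in TMM-scaled CPM. Cldn12 counts were 1.40, 2.03, 2.13 and 2.01 times background in Hypoxia 1 to 4, against 9.35 and 13.1 times in Hypoxia+Nitrate 1 and 4. The Hypoxia values thus hold much background. Without Hypoxia+Nitrate 1 and 4 Cldn12 was called lower (log2 fold change -1.59, SE 0.39, edgeR adjusted p = 0.0211), at 0.878 and 0.922 times the expected background in Hypoxia+Nitrate 2 and 3.

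Cldn23 (ENSMUSG00000055976, chromosome 8, 35824712 to 35826559, minus strand), a claudin of differentiated gut epithelium, had 308, 37, 24 and 136 counts in Hypoxia+Nitrate 1 to 4, against 82, 73, 62 and 78 in Hypoxia 1 to 4. In CPM it held 21.9, 2.10, 1.31 and 6.63 in Hypoxia+Nitrate, against 5.47, 5.31, 3.27 and 4.70 in Hypoxia. Hypoxia+Nitrate 1 and 4 lay above the Hypoxia libraries and Hypoxia+Nitrate 2 and 3 below them. The log2 fold change of Cldn23 was 0.76 (SE 0.78, edgeR adjusted p = 0.466), and it was -1.04 with library size alone.

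**Figure D2:**
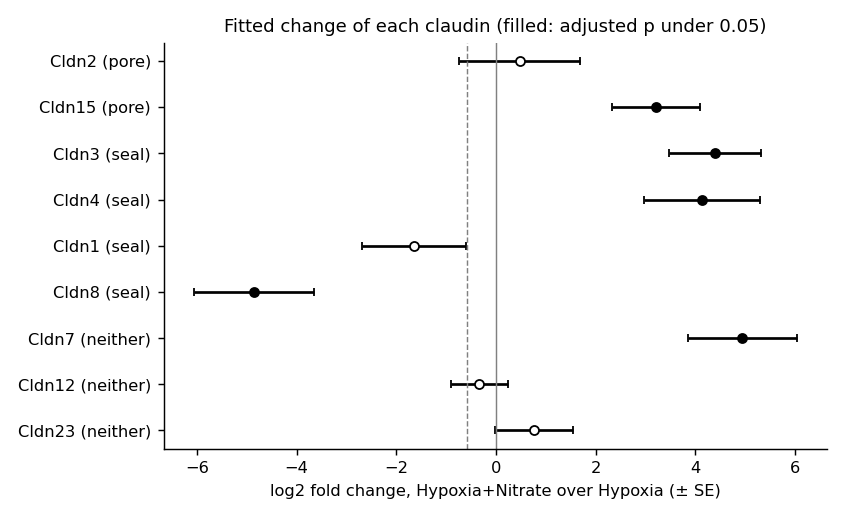
Log2 fold change of each claudin, Hypoxia+Nitrate over Hypoxia, with its standard error (edgeR, 4 libraries per group); filled points passed an adjusted p of 0.05, the solid line is 0 and the dashed line the median of all genes tested. Cldn3, Cldn4, Cldn7 and Cldn15 lie between 3.22 and 4.95, and Cldn8 lies at -4.86.

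The count level of each claudin over background separated the libraries further. In Hypoxia+Nitrate 1 and 4 the counts of Cldn3, Cldn4 and Cldn7 were 295 to 679 times the expected background, and those of Cldn15 160 and 130 times. In Hypoxia+Nitrate 2 and 3 Cldn7 stood at 14.6 and 11.6 times and Cldn3 at 11.1 and 10.01 times, while Cldn4 stood at 15.4 and 1.40 times and Cldn15 at 6.73 and 2.07 times. In Hypoxia the counts of Cldn3 were 1.99 to 2.94 times, of Cldn4 1.76 to 5.97 times, of Cldn7 0.893 to 5.86 times and of Cldn15 0.993 to 2.91 times the expected background. Their Hypoxia levels were thus near background, except for Cldn4 and Cldn7 in Hypoxia 2 (5.97 and 5.86 times). The part of the background in the fold changes was not tested beyond the subtraction given next. Cldn2 was at 16.7, 3.71, 0 and 8.10 times in Hypoxia+Nitrate 1 to 4, against 0.266, 3.71, 0.320 and 1.83 times in Hypoxia 1 to 4, with the X chromosome taken at 0.5 of the autosomal background. After subtraction of the expected background, limma-voom called 0 of the 8 claudins left in the fit (Cldn8 fell out by the filter), against 13.5% of 14998 genes, and 1 was higher and 1 lower at an unadjusted p under 0.05. The log2 fold changes after subtraction were 5.21 (SE 1.98, adjusted p = 0.107) for Cldn7, 2.76 (SE 1.63, adjusted p = 0.259) for Cldn3, 2.92 (SE 2.15, adjusted p = 0.361) for Cldn15 and 1.55 (SE 2.53, adjusted p = 0.690) for Cldn4. With the background share as a covariate edgeR called 0 of the 9, also at an unadjusted p under 0.05, and 0 of all 35431 genes. The share was 2.74% to 23.2% in Hypoxia+Nitrate and 39.0% to 63.6% in Hypoxia. Since it did not overlap, that fit can hardly separate share from group, and no conclusion on the claudins is drawn from it.

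**Figure D3:**
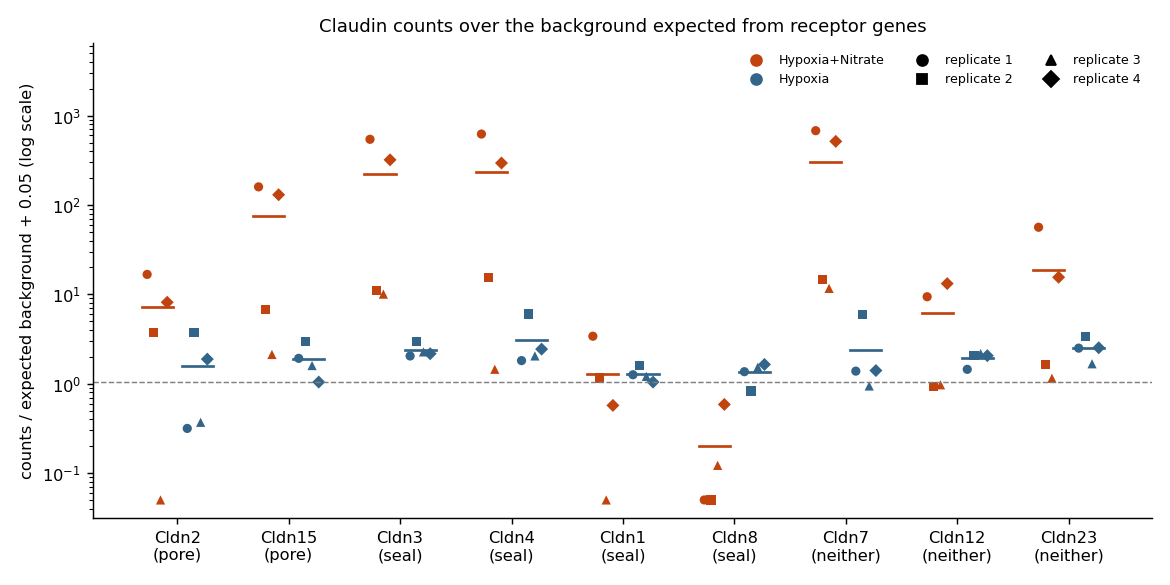
Counts of each claudin divided by the background expected from receptor genes over its exonic length, plus 0.05, on a log axis; symbols are libraries, bars are group means (n = 4) and the dashed line marks counts equal to background. Only Cldn3, Cldn4, Cldn7 and Cldn15 exceed 100 times the background, in Hypoxia+Nitrate 1 and 4.

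Levels of different claudins were compared per kb of exonic sequence free of other genes. In Hypoxia+Nitrate Cldn7 averaged 70.0 ± 71.2 CPM per kb, Cldn4 52.8 ± 59.9, Cldn3 50.7 ± 52.9 and Cldn15 17.5 ± 16.7 (SD, n = 4). Cldn23 followed at 4.32 ± 5.17 CPM per kb, then Cldn12 at 1.56 ± 1.18, Cldn2 at 1.01 ± 0.748, Cldn1 at 0.406 ± 0.404 and Cldn8 at 0.0426 ± 0.0586. No neighbours in this order differed by more than the larger of their SDs. Within libraries, where scaling cancels, Cldn7 per kb was 1.25, 1.31, 1.16 and 1.61 times Cldn3 in Hypoxia+Nitrate 1 to 4, against 0.668, 1.99, 0.402 and 0.640 times in Hypoxia 1 to 4. Cldn15 per kb was below Cldn3 in every library, at 0.294, 0.607, 0.207 and 0.407 times in Hypoxia+Nitrate and 0.939, 0.988, 0.697 and 0.470 times in Hypoxia. In Hypoxia the 9 claudins lay closer together, from 0.724 ± 0.699 CPM per kb for Cldn2 to 2.99 ± 1.48 for Cldn4, where the receptor genes averaged 1.05 ± 0.140.

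Pore-forming and sealing claudins were compared as summed counts per kb, without a test because the genes were chosen with results known. The ratio of Cldn2 and Cldn15 to Cldn1, Cldn3, Cldn4 and Cldn8 was 0.144, 0.311, 0.181 and 0.218 in Hypoxia+Nitrate 1 to 4, against 0.319, 0.424, 0.249 and 0.269 in Hypoxia 1 to 4. Sealing claudins outweighed pore-forming claudins in all 8 libraries, but the sums hold 4 sealing and 2 pore-forming genes. Equal levels of every gene would thus give the same direction. In Hypoxia the counts of these genes were 1.20 (Cldn1) to 2.73 (Cldn4) times the expected background, so gene number and background enter the Hypoxia ratio. The groups overlapped, since Hypoxia+Nitrate 2 lay above Hypoxia 3 and 4. The means were 0.213 ± 0.0719 in Hypoxia+Nitrate and 0.316 ± 0.0782 in Hypoxia (SD, n = 4 each). After background subtraction they were 0.190 ± 0.0781 in Hypoxia+Nitrate and 0.287 ± 0.146 in Hypoxia.

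The make-up of the family was also described without a test, since the claudins were grouped after their values were seen. Cldn3, Cldn4 and Cldn7 together made up 88.6%, 77.2%, 84.7% and 87.3% of the 9 claudins' counts per kb in Hypoxia+Nitrate 1 to 4, against 37.8%, 54.4%, 38.7% and 39.5% in Hypoxia 1 to 4. Cldn1, Cldn8, Cldn12 and Cldn23 made up 3.32%, 6.71%, 7.70% and 2.29% in Hypoxia+Nitrate, against 47.3%, 28.1%, 48.4% and 47.6% in Hypoxia. Background counts enter these shares. After subtraction of the expected background, an alternative chosen after seeing the data, Cldn3, Cldn4 and Cldn7 made up 88.8%, 83.0%, 94.5% and 87.6% in Hypoxia+Nitrate, against 39.2% to 62.3% in Hypoxia. Hypoxia 2, the Hypoxia library with the lowest background share (39.0%) and the most epithelial marker counts over background, was the nearest to the Hypoxia+Nitrate libraries.

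**Figure D4:**
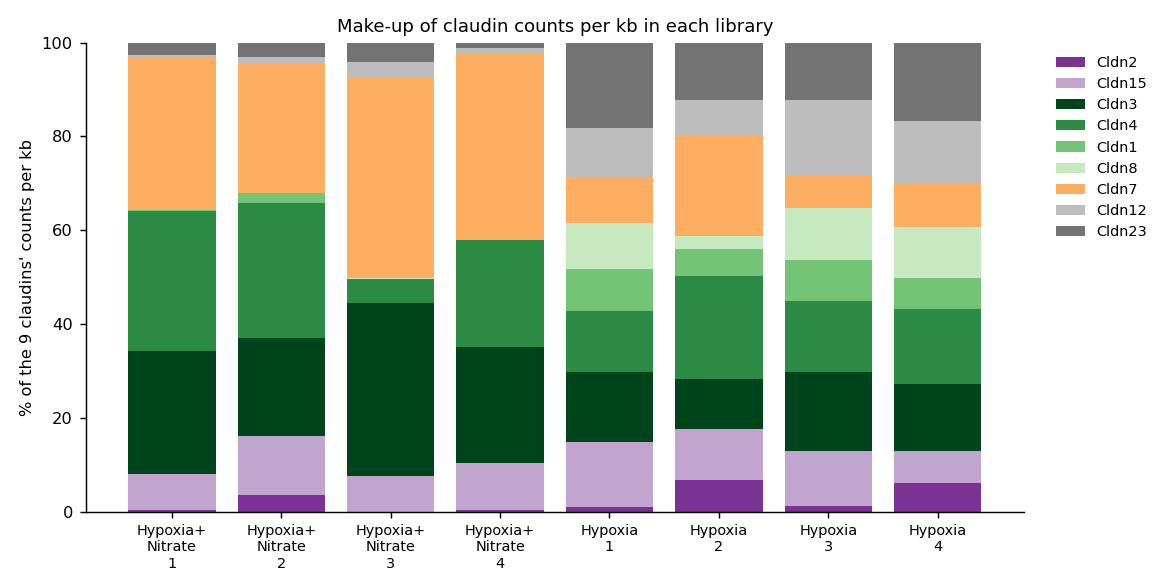
Share of each claudin in the summed counts per kb of the 9, by library, with Hypoxia+Nitrate 1 to 4 on the left and Hypoxia 1 to 4 on the right; purple shades are pore-forming, green shades sealing, and the other colours neither. Cldn7 holds 27.4% to 42.7% in Hypoxia+Nitrate and 6.77% to 21.6% in Hypoxia.

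Set against other epithelial RNA in raw counts, the claudins that rose were fewer in every Hypoxia+Nitrate library than in any Hypoxia library. After subtraction of the expected background this no longer held. Cldn3, Cldn4, Cldn7 and Cldn15 together had 6.70, 7.22, 3.68 and 3.73 counts per 100 counts of the 11 epithelial markers in Hypoxia+Nitrate 1 to 4, against 11.3, 7.45, 20.3 and 18.6 in Hypoxia 1 to 4. With the expected background taken off both, the values were 6.69, 6.76, 3.12 and 3.72 in Hypoxia+Nitrate, against 6.17, 6.16, 14.7 and 12.4 in Hypoxia, and the groups overlapped. The markers themselves rose for 11 of 11 genes (median log2 fold change 4.67; summed level 730 to 13717 CPM in Hypoxia+Nitrate and 61.0 to 375 CPM in Hypoxia). The part of epithelial RNA amount in the claudin changes was not tested. Markers of smooth muscle rose as well (7 of 7, summed level 1373 to 2992 CPM in Hypoxia+Nitrate and 73.0 to 434 CPM in Hypoxia), as did Paneth cell markers (7 of 7) and 4 of 7 goblet cell markers. Of the remaining markers, 2 of 6 tested for large intestine rose and 2 fell, 2 of 4 for stomach fell, 1 of 6 for pancreas fell and 1 of 6 for squamous epithelium fell. Blood vessel endothelium had 2 of 7 lower, fibroblasts 1 of 6 higher, and immune cells 2 of 8 higher and 1 lower. Over all genes tested 11.7% were called higher and 12.7% lower. Hypoxia counts were 1.70 times background for large intestine and for stomach markers and 1.09 times for pancreas. For squamous epithelium they were 1.42 times and for endothelium 1.46 times. The lower calls in these lists thus start from Hypoxia counts near background and are no measure of lost RNA of these tissues. The stomach markers Gkn1, Gkn2, Tff1 and Atp4b were at 0 counts throughout Hypoxia+Nitrate, and at 1.25 (Gkn2) to 1.80 (Gkn1) times background in Hypoxia.

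Of the 25 other genes named Cldn and a number, 14 passed the filter, of which 1 was higher (against 11.7% of all genes), 2 were lower (12.7%) and 11 did not pass; their median log2 fold change was -2.04. Cldn19, known from kidney tubules, retina and peripheral nerve, rose without overlap, with 214, 947, 1294 and 572 counts in Hypoxia+Nitrate 1 to 4, against 27, 43, 58 and 65 in Hypoxia 1 to 4 (log2 fold change 3.81, SE 0.57, edgeR adjusted p = 0.00917). The order of libraries was unlike that of the 4 claudins that rose: in CPM Hypoxia+Nitrate 3 and 2 were highest (70.4 and 53.8) and Hypoxia+Nitrate 4 and 1 lower (27.9 and 15.2). Cldn19 counts were 0.682 times the expected background in Hypoxia and 22.5 times in Hypoxia+Nitrate. Cldn9 and Cldn16 were called lower (edgeR adjusted p = 0.00917 and 0.0162), but they passed the filter through Hypoxia counts at 1.35 and 1.49 times background, so these calls compare counts near or below background. Cldn10 and Cldn34c1, the next highest in mean CPM after Cldn19, did not pass (log2 fold changes 1.07 and -0.47).

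Genes that work with claudins were taken from 6 lists, whose counts stand beside 11.7% higher and 12.7% lower over all genes tested. Of 24 membrane partners and scaffolds of the tight junction, 8 rose, 0 fell and 16 did not pass (median log2 fold change 1.19; 0 were lower at an unadjusted p under 0.05, and 1 in DESeq2 and 0 in limma-voom were called lower), among them Patj, a Crumbs complex scaffold (2.69), Lsr, which recruits proteins to tricellular junctions (3.59), and the junctional adhesion molecule F11r (3.42). Of 14 genes that bind, cleave or phosphorylate claudins, 7 rose and 1 fell (median 1.67). Epcam, which binds and stabilises Cldn7, rose by 4.67 on the log2 scale (SE 1.03, edgeR adjusted p = 0.0115) and the kinase Sgk1 by 4.92. Of 15 transcription factors known to act on claudin genes, 7 rose and 1 fell (median 2.05), with Hnf4a at 3.94, Klf4 at 4.18 and Cdx1 at 3.65. Of 12 transporters that share ions with the paracellular route, 5 rose and 0 fell (median 1.03; 2 were lower at an unadjusted p under 0.05, and 2 were called lower in each of DESeq2 and limma-voom), including the sodium-glucose carrier Slc5a1 (4.66) and the sodium pump subunit Atp1b1 (4.64). Among these named genes that rose, Hypoxia counts ran from 0.907 times background for Patj to 4.59 times for Epcam. Of 11 claudin-like tetraspan genes 2 rose and 3 fell (median 0.45), and of 10 cytokines known to alter claudins edgeR called 0 (median -1.43), with 2 lower at an unadjusted p under 0.05 and 3 called lower in each of DESeq2 and limma-voom. The cytokine counts in Hypoxia were 1.46 times background as a whole.

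The upward calls in these lists depended on single libraries, as did those over all genes (4163 of 35431 with all libraries). Without Hypoxia 1 edgeR called 0 higher in the lists of junction partners, binding genes, factors, transporters and tetraspan genes, and 676 of all 34746 genes. Without Hypoxia 2, 3 or 4 it called 1 or 2 junction partners, 1 to 4 binding genes, 1 to 5 factors, 1 to 4 transporters and 1 or 2 tetraspan genes higher. Over all genes 2589 of 36660, 1580 of 38001 and 1631 of 38580 were then called higher. Without any 1 of the Hypoxia+Nitrate libraries, 6 to 13 junction partners, 4 to 8 binding genes, 5 to 9 factors and 5 or 6 transporters were called higher, against 2866 of 37453 to 5974 of 41753 over all genes. The 3 lower calls among tetraspan genes became 0 or 1 without any 1 of the Hypoxia libraries, and 2 to 4 without any 1 of the Hypoxia+Nitrate libraries. Lower calls over all genes were 4490 with all libraries, 1256 to 3101 without 1 Hypoxia library and 4679 to 16480 without 1 Hypoxia+Nitrate library. With library size as the only scaling 1 transporter and no gene of the other lists was called higher, and 243 of all 35431 genes.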

How the data were processed

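Total RNA of 8 samples was sequenced with a stranded kit, per the labels' protocols, and the authors deposited raw read counts per gene. HISAT, featureCounts 1.5.0-p3, DESeq 1.8.3 and GRCm38 are named in the submitters' processing notes. Their aligner version, annotation and strand setting are not stated there. The 8 single-sample columns equal those of the joint table. GENCODE M21 supplied lengths and positions for 55154 of 55421 gene IDs.

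Genes passing filterByExpr (minimum count 10, minimum total 15) were tested with edgeR 4.0.16 in R 4.3.3 (TMM, quasi-likelihood test, Benjamini-Hochberg threshold 0.05), with limma 3.58.1 and DESeq2 1.42.0 as alternatives, and the code was checked on simulated data. Background was the mean count per kb of 1468 autosomal receptor genes times a gene's exonic length free of other genes. Having 4 samples a group limits precision, and the total counts give counting error only. Named were all 9 claudins, other claudins that were called or among the 3 highest in mean CPM, and up to 3 genes of each list with the lowest p, here for the 4 lists on junctions, binding, factors and transport; some genes that the rule names are not reported here. Members, classes and lists were chosen with earlier results of these data known. Promoters came from RefSeq.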

Additional observations from a re-analysis of the deposited data

Results flagged for a closer look

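Of 22 groups of 4 values tested for a sample far from the others by Dixon's criterion, 3 met it, where chance alone flags about 1 in 20 groups. All concern Hypoxia 2. Cldn4 was highest there, at 9.46 CPM, with a gap of 0.895 of the group's range. Cldn7 was highest there too, at 9.97 CPM (0.846 of the range). Cldn8 was lowest there, at 1.60 CPM (0.948 of the range). Hypoxia 2 also held the most epithelial marker counts over background of the Hypoxia libraries (16.7 times), and the part of this in the values was not tested.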

How the results depend on the processing

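Over all genes 8653 were called, against 1800 with library size only, 16708 with no filter, 14689 in DESeq2, 15818 in limma-voom, 4791 with the replicate block, 4227 without Hypoxia 1 and 2, 2020 after background subtraction and 0 with the background share as covariate (2640 at an unadjusted p under 0.05). Leaving out 1 library gave 1932 (without Hypoxia 1) to 22454 (without Hypoxia+Nitrate 2), with 14697 without Hypoxia+Nitrate 3, 5690 without Hypoxia 2, 4235 without Hypoxia 3 and 4434 without Hypoxia 4. Claudins called higher numbered 4, but 1 with library size only, 2 in limma-voom, with the block (Cldn15 at adjusted p = 0.0896 and Cldn4 at 0.142 were lost) and without Hypoxia+Nitrate 1 and 4, and 0 without Hypoxia 1 and 2, with the covariate and after subtraction, and 0 to 4 with 1 library left out (0 without Hypoxia 1, and 2 without Hypoxia 2, 3 or 4 or Hypoxia+Nitrate 1). Claudins called lower numbered 1, but 2 in limma-voom and without Hypoxia+Nitrate 1 and 4, 0 with library size only, without Hypoxia 1 and 2, with the covariate and after subtraction, and 0 to 1 with 1 library left out (0 without Hypoxia 1, 3 or 4). The cause of these changes was not tested. Same-numbered libraries deviated together with correlations of -0.18 to 0.18, and not every library correlated best with its own number. These values show no pairing by number but cannot exclude one.

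Log2 fold changes turned in sign for Cldn2 with library size only (-0.26), in limma-voom (-0.35), with the replicate block (-0.11), without Hypoxia+Nitrate 1 and 4 (-0.11) and with the covariate (-2.37). For Cldn23 they did so in these settings (-1.04, -0.091, -0.054, -1.38 and -2.73), after subtraction (-1.61) and without Hypoxia+Nitrate 1 (-0.47, in a range of -0.47 to 1.30 with 1 library left out). The covariate also turned Cldn15 (-0.52), Cldn3 (-0.36), Cldn4 (-1.39), Cldn7 (-0.72), Lsr (-1.03), F11r (-0.68), Epcam (-0.57), Sgk1 (-1.59), Klf4 (-0.44), Cdx1 (-1.11), Atp1b1 (-0.85), Slc5a1 (-1.18) and Cldn34c1 (0.79). In the covariate fit the background share and the group could hardly be told apart, so its signs are no measure of these genes. Cldn34c1 turned without Hypoxia+Nitrate 1 and 4 (0.28), Cldn12 without Hypoxia+Nitrate 3 (0.13, in a range of -0.88 to 0.13 with 1 library left out) and Cldn10 after subtraction (-0.062). The ratio of pore-forming to sealing claudins averaged 0.140 in Hypoxia+Nitrate with Cldn12 counted as pore-forming and Cldn7 and Cldn23 as sealing, against 0.360 in Hypoxia, without overlap. This regrouping brings in Cldn12, whose Hypoxia values hold much background, and Cldn7, which had the largest rise. It was not repeated after background subtraction, and with the classes used above the groups overlapped. With those classes but without Cldn4 the ratio was 0.409 in Hypoxia+Nitrate and 0.527 in Hypoxia. With all genes of those classes and 1 library left out it was 0.181 to 0.237 in Hypoxia+Nitrate and 0.279 to 0.338 in Hypoxia. The background share differed by -38.8 percentage points, and by -42.8 to -34.6 with 1 library left out. The counts of the 9 claudins, which set the counting error, were 0 to 4772 per library in Hypoxia+Nitrate and 8 to 186 in Hypoxia.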
